A study of Mus musculus with 55 samples.

Results

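Glutathione S-transferases of the alpha, mu, pi and theta classes were followed through mouse liver RNA. The 10 genes were Gsta1, Gsta2, Gsta3, Gsta4, Gstm1, Gstm2, Gstm3, Gstm4, Gstp1 and Gstt1. They were chosen by name, each is 1 of the 24475 rows of the deposited count table, and all 10 passed the filter on low counts. These cytosolic enzymes join the tripeptide glutathione to electrophiles such as epoxides, quinones and lipid aldehydes, and the conjugates leave the cell for mercapturate formation. In the liver many alpha and mu class genes are inducible through the transcription factor NRF2, a sensor of electrophiles, and through the xenobiotic receptors CAR and PXR. The mouse pi class gene is better known for a higher level in male than in female liver.

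The livers came from 6 groups of male mice that differed in stock and in the hairpin they received. The first of these stocks, named OTC here, is B6EiC3Sn a/A-Otcspf-ash/J and carries the spf-ash allele of the X-linked urea cycle gene Otc. The other, named WT, is the hybrid B6EiC3SnF1/J. The stocks can differ elsewhere in the genome, so the Otc allele and the stock cannot be told apart. All animals were injected intravenously at 4 months of age with an adeno-associated virus (AAV), which encoded a hairpin targeting Gls2 (sh-Gls2), a hairpin targeting Glud1 (sh-Glud1) or a scrambled control hairpin. Gls2 encodes the liver glutaminase that releases ammonia from glutamine, and Glud1 encodes glutamate dehydrogenase. From week 2 all mice ate a diet with 40% protein, and livers were taken at week 5. The labels give an age of 5 months for every sample. No group went without virus or without the high-protein diet. There were 10 OTC sh-Gls2, 8 OTC sh-Glud1, 8 OTC control, 10 WT sh-Gls2, 9 WT sh-Glud1 and 10 WT control libraries, and 1 of the OTC control columns carried a mouse number that matched no sample title.

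Total counts per library ran between 14489866 and 22781052. Levels below are counts scaled to library size with TMM factors (CPM), and comparisons between different genes use the deposited TPM, which is scaled for transcript length. A gene was called at an adjusted p below 0.05 in edgeR's quasi-likelihood test over 13311 genes. In OTC livers Gls2 averaged 198 ± 23.9 CPM under sh-Gls2 (SD, n = 10) against 439 ± 84.4 CPM under the control hairpin (SD, n = 8). In WT livers the averages were 204 ± 30.01 CPM with the Gls2 hairpin against 441 ± 67.2 CPM with the control hairpin (SD, n = 10 each). Glud1 fell by 1.27 on the log2 scale under sh-Glud1 in OTC livers and by 1.42 in WT livers, and Otc fell by 3.09 in OTC control against WT control livers. Under sh-Gls2 Otc itself was 0.27 higher in OTC livers (adjusted p = 0.0087). The hepatocyte markers were high in all 6 groups, with a summed median between 102970.0 and 123565 CPM. Bulk tissue cannot tell fewer cells of a type from less RNA per cell.

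Some control libraries had unusual levels of sex-biased liver genes or of the transferases. WT control mouse 13 had 1894 CPM summed over 13 male-biased liver genes, against 8786 to 25518 CPM in the other 9 WT control libraries, and 995 CPM over 13 female-biased genes, against 18.97 to 118 CPM. OTC control mice 3 and 67 had 1086 and 1332 CPM over the male-biased genes and 2289.8 and 1115 CPM over the female-biased genes, and the OTC control library without a matching title had 1160.2 and 618 CPM. Low male-biased sums were not particular to OTC controls, whose sums ran from 1086 to 19534 CPM. They ran from 1111 to 20248 CPM in OTC sh-Gls2 and from 1007 to 16166 CPM in OTC sh-Glud1 livers. Female-biased sums reached 687 CPM in OTC sh-Gls2 and 720 CPM in OTC sh-Glud1 livers. OTC control mouse 35 held the highest level of its group for 8 of the 10 transferases. Calls that changed without these control libraries are given with and without them. Libraries of the sh-Gls2 and sh-Glud1 groups were left out only singly, so the joint omissions are of controls alone.

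The alpha class genes Gsta4, Gsta1 and Gsta2 lie within 173.0 kb of mouse chromosome 9 (GENCODE M21, GRCm38), at chr9:78182774-78209349 on the plus strand, chr9:78230656-78242684 on the plus strand and chr9:78331018-78355788 on the minus strand. Gsta3 lies apart, at chr1:21240589-21265661 on the plus strand. The 4 mu class genes sit within 81.2 kb of chromosome 3 on the minus strand, in the order Gstm3 (chr3:107963696-107969283), Gstm2 (chr3:107981702-107986453), Gstm1 (chr3:108012255-108017973) and Gstm4 (chr3:108040408-108044894). Gstp1 is at chr19:4035407-4037985 and Gstt1 at chr10:75783813-75798584, both on the minus strand. All are protein-coding.

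Identical bases made up 97.61% of the longer coding sequence for Gsta1 and Gsta2, and 85.17% for Gstm2 and Gstm3 (557 of 654 bases). The Gstm1 transcript used has a longer coding sequence of 732 bases, which lowers its percentages. It had 585 bases identical to Gstm3, or 79.92% by this measure. Of the 50-base windows along the Gsta1 transcript, 89.71% also occur in the transcript of another gene, and 82.93% occur in Gm3776, a protein-coding neighbour at chr9:78257129-78269166. The share of such windows was 64.19% for Gsta2, 62.31% for Gstp1 (all shared with Gstp2), 32.99% for Gstm1, 28.76% for Gstm3 and 9.36% for Gstm2. It was 0 for Gsta3, Gsta4, Gstm4 and Gstt1. The counting method was not given in the sources used here, so single-gene counts of the genes with shared windows are uncertain and class sums are given beside them. The sums do not remove this limit, because apart from Gsta2 the most shared partners of the alpha and mu class genes lie outside them. Besides Gm3776 these were Gstm2-ps1 (24.26% of Gstm1 windows), Gm8834 (16.01% of Gstm3 windows) and Gm12499 (5.52% of Gstm2 windows). For Gsta2 the most shared gene was Gsta1 (44.82% of Gsta2 windows), which is inside the alpha class sum.

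The promoters of Gsta1 and Gsta2 are shown because both genes rose under sh-Gls2 without overlap with controls in either stock. Capitals mark the 7 runs of at least 8 identical bases, 96 bases in all with a longest run of 29, that the aligned windows share in the 250 bases before the RefSeq starts (GRCm38.p6, 5′ to 3′; Gsta1 at chr9:78230419-78230668, plus strand; Gsta2 at chr9:78347146-78347395, minus strand).
Gsta1: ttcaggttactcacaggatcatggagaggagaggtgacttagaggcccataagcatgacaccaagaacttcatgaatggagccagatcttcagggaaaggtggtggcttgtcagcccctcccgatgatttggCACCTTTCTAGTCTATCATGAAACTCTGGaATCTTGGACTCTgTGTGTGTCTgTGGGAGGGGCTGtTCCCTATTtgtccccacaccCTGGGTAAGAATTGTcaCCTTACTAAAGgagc
Gsta2: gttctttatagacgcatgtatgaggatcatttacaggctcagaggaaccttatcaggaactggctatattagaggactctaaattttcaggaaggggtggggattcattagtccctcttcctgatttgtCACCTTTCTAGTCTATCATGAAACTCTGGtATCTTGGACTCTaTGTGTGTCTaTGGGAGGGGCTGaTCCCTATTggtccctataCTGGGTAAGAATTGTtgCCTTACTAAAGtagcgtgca
The windows were 73.6% identical, against a median of 51.6% for the other 35 pairs of the 9 members with a RefSeq promoter. RefSeq and GENCODE starts differ, and the Gsta2 and Gstt1 windows lie inside the GENCODE genes. Exons of GENCODE cover 23 bases of the Gsta2 window, 73 of the Gstp1 window and 109 of the Gstm3 window. The Gstp1 stretch printed below reaches into its GENCODE gene.

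The same windows were searched on both strands for the antioxidant response element core TGACNNNGC, the AP-1 site TGANTCA and the xenobiotic response element core GCGTG, which occur in 10.161%, 6.749% and 28.157% of all 32851 RefSeq windows of 250 bases. TGACNNNGC was found in 1 member, Gsta3, and TGANTCA in 1 member, Gstp1. GCGTG was found in Gsta2, Gstm1 and Gstp1, and no window of Gsta1, Gstm2, Gstm3, Gstm4 or Gstt1 held any of these letters. The 2 stretches below, with the match in capitals, are at chr1:21240449-21240487 (plus strand) and chr19:4037965-4038001 (minus strand) of GRCm38.p6. A match is a description of letters and not evidence of binding. Sequence beyond these 250 bases was not searched, so a window without a match does not show that a gene lacks such an element.
Gsta3: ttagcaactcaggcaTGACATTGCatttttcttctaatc
Gstp1: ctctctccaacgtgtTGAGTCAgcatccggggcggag

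Per transcript length, Gstm1, Gsta3 and Gstp1 formed the top of the family in every group, and Gsta1 was lowest wherever the Gls2 hairpin was absent. In OTC control livers Gstm1 led with 3385 TPM, ahead of Gsta3 with 2180 TPM and Gstp1 with 1752 TPM, with overlapping ranges. In WT control livers the medians ran from 2670 TPM for Gstp1, 2222 TPM for Gsta3 and 1547 TPM for Gstm1 down to 50.5 TPM for Gstm4 and 28.4 TPM for Gsta1. Neighbours among the first 3 overlapped in range. Gstm1 lay wholly above Gstt1 (285 TPM), which lay wholly above Gsta4 (108 TPM). Under sh-Gls2, Gsta1 stood at a median of 269 TPM in OTC and 251 TPM in WT livers, next to Gsta2 with 294 TPM in OTC and 281 TPM in WT livers, with overlapping ranges. Together the 10 genes took a median of 0.643% of all counts in OTC sh-Gls2 and 0.503% in OTC control livers, while the WT medians were 0.487% with sh-Gls2 and 0.40021% with the control hairpin.

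**Figure D1:**
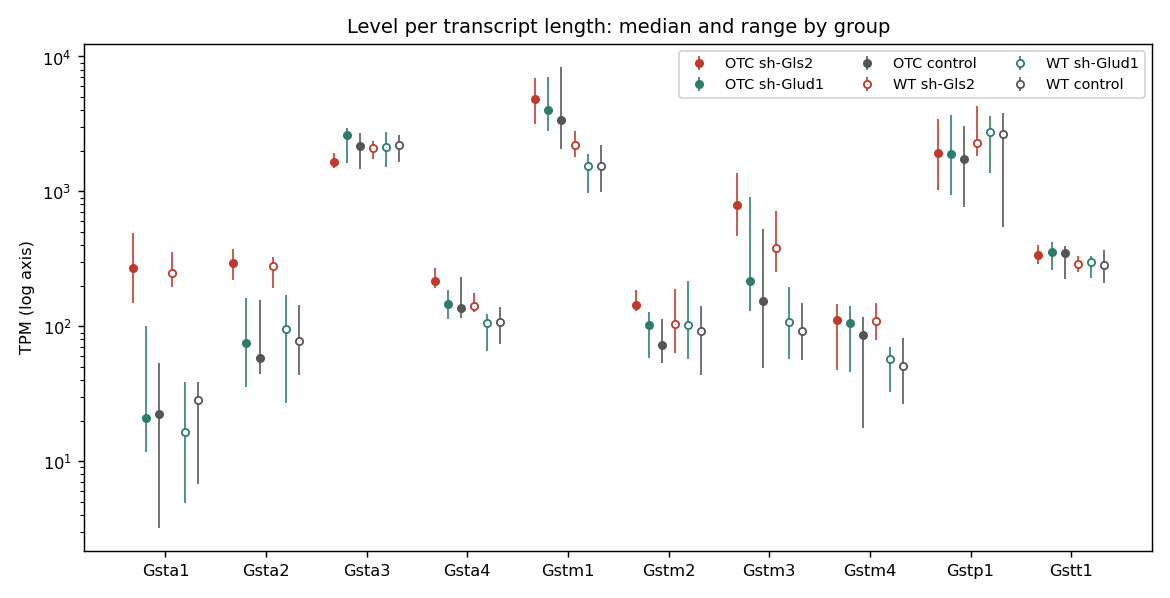
Deposited TPM (log axis) of the 10 transferase genes in each of the 6 groups, as the median (point) and the lowest to highest library (line). Filled points are OTC and open points WT; Gsta1 has medians of 269 TPM in OTC sh-Gls2 and 251 TPM in WT sh-Gls2 livers and is lowest in the other 4 groups, while Gstt1 medians lie between 285 and 354 TPM.

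Single alpha and mu class genes, but not every member, were higher under the Gls2 hairpin. The labels name only 1 hairpin per target, so the fall of Gls2 and other effects of that hairpin cannot be told apart. In OTC livers 5 of the 10 genes rose (Gsta1, Gsta2, Gsta4, Gstm2 and Gstm3) and 1 fell (Gsta3), where 20.2% of all tested genes rose and 22.6% fell. In WT livers 6 rose (Gsta1, Gsta2, Gsta4, Gstm1, Gstm3 and Gstm4) and none fell, where 17.6% of all genes rose and 17.2% fell. The median log2 fold change over the 10 genes was 0.51 in OTC and 0.43 in WT livers, and over all tested genes it was -0.02 in OTC and -0.01 in WT livers. The 4 genes called higher in both stocks were Gsta1, Gsta2, Gsta4 and Gstm3, and Gstp1 and Gstt1 were called in neither.

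Gsta1 showed the largest log2 fold change among the 10 genes in both stocks. In OTC livers its lowest, median and highest levels were 78.2, 129.95 and 245 CPM under sh-Gls2 and 1.70, 10.01 and 27.2 CPM under the control hairpin, and it rose by 3.71 ± 0.40 on the log2 scale (SE, adjusted p = 1.4e-10). In WT livers they were 102, 139.9 and 191 CPM under sh-Gls2 and 3.90, 14.1 and 20.5 CPM under the control hairpin, and it rose by 3.37 ± 0.36 (SE, adjusted p = 9.0e-11). Every sh-Gls2 library of either stock lay above every control library of the same stock, and these folds were 13.1 in OTC and 10.3 in WT.

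Gsta2, the alpha class neighbour with nearly the same coding sequence, rose less in proportion. It had 102, 146 and 191 CPM in OTC sh-Gls2 and 21.98, 31.03 and 78.6 CPM in OTC control livers, a rise of 2.00 ± 0.26 (SE, adjusted p = 1.1e-08). WT livers had 101, 149 and 175 CPM under sh-Gls2 and 21.8, 42.5 and 77.8 CPM under the control hairpin, a rise of 1.68 ± 0.23 (SE, adjusted p = 9.2e-08). Again no control library reached the sh-Gls2 range of its stock.

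Because reads may be shared between the pair, their sum and the split between them were also examined, the split after its values had been seen. The sum of Gsta1 and Gsta2 rose by 2.62 ± 0.26 in OTC livers (SE, adjusted p = 1.4e-11) and by 2.28 ± 0.24 in WT livers (SE, adjusted p = 4.5e-11). Gsta1 made up 48.8 ± 8.26% of the pair's counts in OTC sh-Gls2 and 22.1 ± 8.01% in OTC control livers (SD, n = 10 and 8; two-sided exact permutation p = 4.6e-05, adjusted p = 0.00014 over 15 comparisons of shares). In WT livers it made up 49.3 ± 5.43% under sh-Gls2 and 24.4 ± 9.32% under the control hairpin (SD, n = 10 each; permutation p = 2e-05, the smallest that the resamples drawn can give, adjusted p = 0.00014). All sh-Gls2 shares exceeded all control shares within each stock.

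Gm3776, the close copy of Gsta1, has a row of its own and was looked at after its values were seen. Its lowest, median and highest levels were 28.8, 74.1 and 163 CPM in OTC sh-Gls2 and 0.21, 1.10 and 17.03 CPM in OTC control livers. In WT livers they were 46.2, 83.4 and 129 CPM under sh-Gls2 and 0.93, 3.73 and 8.09 CPM under the control hairpin. It rose by 4.62 ± 0.61 in OTC livers (SE, adjusted p = 2.7e-08) and by 4.58 ± 0.56 in WT livers (SE, adjusted p = 3.1e-09). With Gm3776 and the neighbouring Gm10639 added to Gsta1 and Gsta2, the sum rose by 2.89 ± 0.29 in OTC and 2.57 ± 0.26 in WT livers.

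Gsta3, the main alpha class transferase of these livers and in mice the enzyme known to conjugate the epoxide of aflatoxin B1, went the other way in OTC livers. It averaged 913 ± 77.7 CPM in OTC sh-Gls2 (SD, n = 10) and 1248 ± 192 CPM in OTC control livers (SD, n = 8), and fell by 0.45 on the log2 scale (SE 0.10, adjusted p = 0.00024), with overlapping ranges. In WT livers it averaged 1230 ± 153 CPM under sh-Gls2 and 1368 ± 199 CPM under the control hairpin (SD, n = 10 each), a log2 difference of -0.15 ± 0.09 that was not called (adjusted p = 0.21). The difference between the stocks in this effect was -0.30 ± 0.14 (SE, unadjusted p = 0.035, adjusted p = 0.41).

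Gsta4, which conjugates the lipid peroxidation product 4-hydroxynonenal, rose modestly. It had 104, 118 and 148 CPM in OTC sh-Gls2 and 63.7, 79.7 and 131 CPM in OTC control livers, a rise of 0.58 ± 0.11 (SE, adjusted p = 3.5e-05). WT livers had 78.8, 86.6 and 111 CPM under sh-Gls2 and 42.8, 64.3 and 84.0 CPM under the control hairpin, a rise of 0.37 ± 0.10 (SE, adjusted p = 0.0050). The ranges overlapped in both stocks, in OTC livers only through control mouse 35.

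Gsta3 held most alpha class reads, and the alpha class as a whole was not called. The sum of the 4 genes had medians of 1346 CPM in OTC sh-Gls2 and 1322 CPM in OTC control livers (log2 difference -0.05 ± 0.10, adjusted p = 0.68). The WT medians were 1631 CPM with sh-Gls2 and 1493 CPM with the control hairpin (0.09 ± 0.09, adjusted p = 0.45). Within that sum the make-up shifted. The share was chosen after its values were seen, and it uses the same counts as the single-gene tests, so it is not separate support. Gsta3 took 69.1 ± 5.40% of alpha class counts in OTC sh-Gls2 and 90.7 ± 2.47% in OTC control livers (SD, n = 10 and 8; exact permutation p = 4.6e-05, adjusted p = 0.00014). Its WT share was 76.5 ± 1.96% under sh-Gls2 and 91.5 ± 1.16% under the control hairpin (SD, n = 10 each; permutation p = 6e-05, adjusted p = 0.00015).

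**Figure D2:**
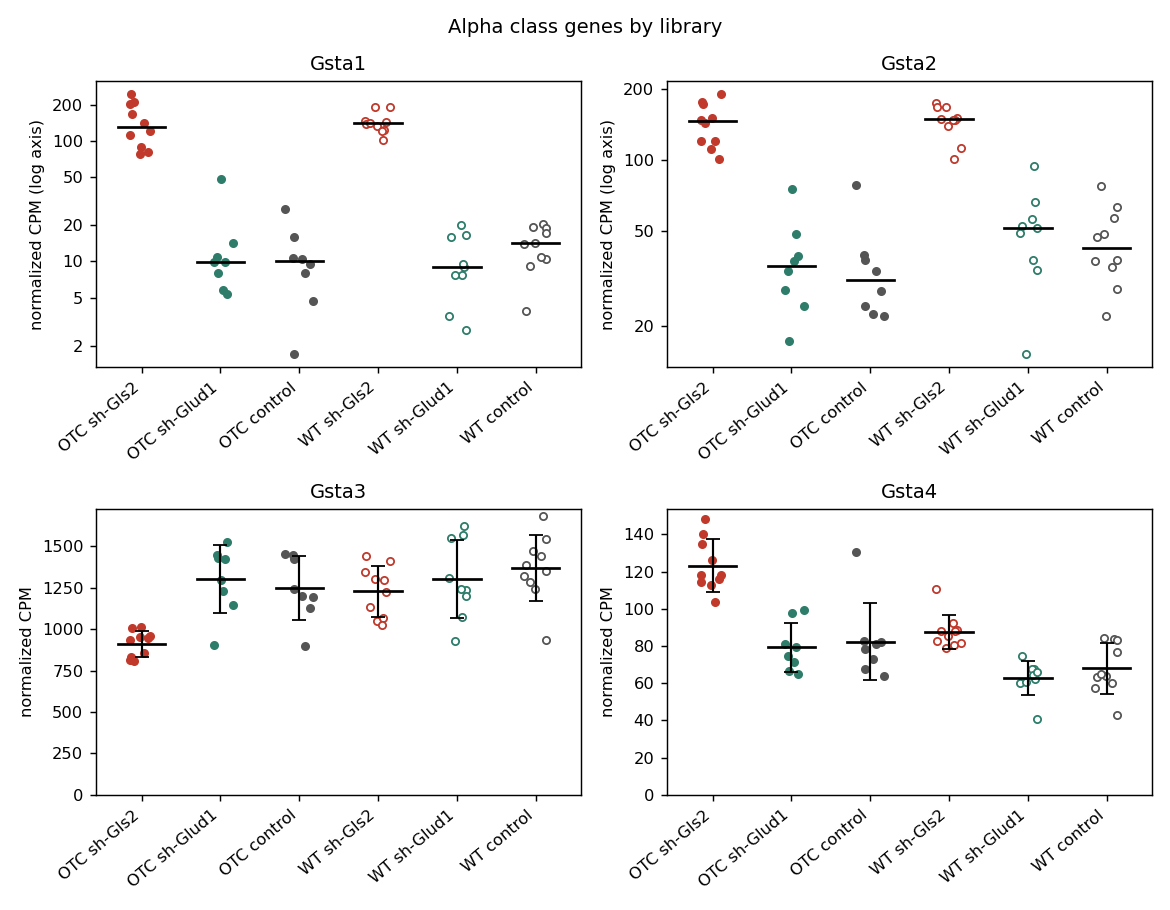
TMM-normalized CPM of the alpha class genes in each library by group, on a log axis with group medians for Gsta1 and Gsta2, and on a linear axis from 0 with mean and SD for Gsta3 and Gsta4. Filled points are OTC and open points WT; for Gsta1 all sh-Gls2 libraries lie at 78.2 CPM or higher, above the highest library of any other group (47.9 CPM, OTC sh-Glud1 mouse 33).

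Among the mu class genes Gstm3 responded most. It had 337, 524 and 939 CPM in OTC sh-Gls2 and 26.7, 90.5 and 374 CPM in OTC control livers, a rise of 1.99 ± 0.35 (SE, adjusted p = 6.9e-06). WT livers had 185, 296 and 541 CPM under sh-Gls2 and 40.9, 69.2 and 113 CPM under the control hairpin, a rise of 2.12 ± 0.32 (SE, adjusted p = 6.2e-07). The WT groups did not overlap, and in OTC livers only control mouse 35 reached into the sh-Gls2 range.

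Gstm1, the most abundant mu class gene, rose in WT livers by 0.49 ± 0.17 (SE, adjusted p = 0.025), with 1205, 1522 and 1946 CPM under sh-Gls2 and 652, 1089 and 1526 CPM under the control hairpin. Without WT control mouse 7, the lowest library, the rise was 0.42 and was no longer called (adjusted p = 0.054). In OTC livers it had 2057, 2957 and 4360 CPM under sh-Gls2 and 1458, 2188 and 5387 CPM under the control hairpin, a difference of 0.21 ± 0.19 that was not called (SE, adjusted p = 0.37). Without OTC control mouse 35, the highest library, the OTC difference was 0.43 and was called (adjusted p = 0.042). The ranges overlapped in both stocks.

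Gstm2 rose in OTC livers, where it had 74.2, 86.5 and 106 CPM under sh-Gls2 and 36.5, 44.3 and 70.8 CPM under the control hairpin, without overlap (0.86 ± 0.19, SE, adjusted p = 0.00031). In WT livers its medians were 69.2 CPM under sh-Gls2 and 61.6 CPM under the control hairpin, a difference of 0.27 ± 0.18 that was not called (adjusted p = 0.25). Gstm4 was called in WT livers instead, where it had 71.7, 99.4 and 138 CPM under sh-Gls2 and 23.4, 47.3 and 74.9 CPM under the control hairpin (1.10 ± 0.20, SE, adjusted p = 1.3e-05). Its WT ranges overlapped through a single pair of libraries. In OTC livers Gstm4 had 41.8, 92.9 and 124 CPM under sh-Gls2 and 16.8, 73.96 and 101 CPM under the control hairpin, a difference of 0.44 ± 0.21 (SE, adjusted p = 0.084), and it was called without OTC control mouse 35 (0.55, adjusted p = 0.034).

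The effect of sh-Gls2 was not shown to differ between stocks for any of the 10 genes. Tested directly, the effect in OTC minus that in WT was -0.67 ± 0.28 for Gstm4 (SE, unadjusted p = 0.023, adjusted p = 0.36) and 0.59 ± 0.26 for Gstm2 (SE, unadjusted p = 0.029, adjusted p = 0.39). By edgeR's test 0 of the 10 genes passed, 3 had an unadjusted p below 0.05, and 0.12% of all genes were called higher and 0.218% lower. For Gsta1 the difference in effect was 0.34 with a 95% interval from -0.64 to 1.33.

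The mu class sum rose in WT livers by 0.65 ± 0.18 (SE, adjusted p = 0.0037), with a median of 2009.7 CPM under sh-Gls2 and 1263 CPM under the control hairpin. In OTC livers the medians were 3637 CPM under sh-Gls2 and 2379.6 CPM under the control hairpin, a difference of 0.40 ± 0.19 that was not called (adjusted p = 0.090), and it was 0.61 without OTC control mouse 35 (adjusted p = 0.0060). Gstm3 took 14.6 ± 2.01% of mu class counts in OTC sh-Gls2 and 4.36 ± 1.66% in OTC control livers (SD, n = 10 and 8; exact permutation p = 4.6e-05, adjusted p = 0.00014). In WT livers it took 14.8 ± 2.497% under sh-Gls2 and 5.41 ± 0.71% under the control hairpin (SD, n = 10 each; permutation p = 4e-05, adjusted p = 0.00014). Neither stock showed overlap between sh-Gls2 and control libraries in that share, which was also chosen after its values were seen.

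**Figure D3:**
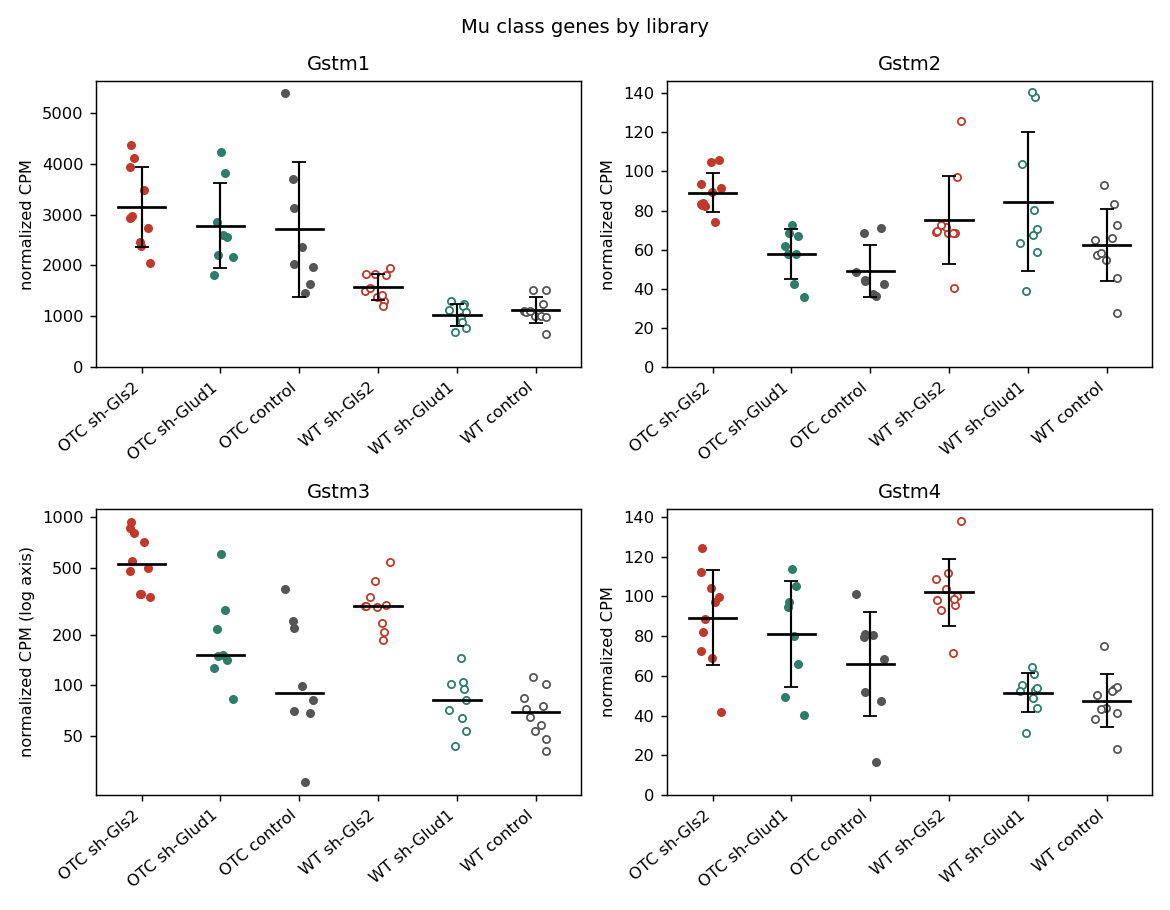
TMM-normalized CPM of the mu class genes in each library by group, on a log axis with group medians for Gstm3 and on linear axes from 0 with mean and SD for the others. Filled points are OTC and open points WT; Gstm3 is highest in the sh-Gls2 groups (medians 524 CPM in OTC and 296 CPM in WT), and OTC control mouse 35 is the top control library for Gstm1 (5387 CPM) and Gstm3 (374 CPM).

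Gstp1, the pi class transferase, varied widely inside each group and was called in no comparison of hairpins. It had 455, 833 and 1408 CPM in OTC sh-Gls2 and 368, 772 and 1346 CPM in OTC control livers, a difference of 0.15 with a 95% interval from -0.40 to 0.70. In WT livers it had 855, 1098 and 2063 CPM under sh-Gls2 and 256, 1239.65 and 1703 CPM under the control hairpin, a difference of 0.12 with an interval from -0.40 to 0.64. The 256 CPM belonged to WT control mouse 13, and the other 9 WT control libraries lay at 640.4 CPM or higher.

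Gstt1, the theta class gene whose enzyme acts on small halogenated compounds, was called in no comparison by the count test over all libraries. It averaged 186 ± 19.8 CPM in OTC sh-Gls2 (SD, n = 10) and 187 ± 25.5 CPM in OTC control livers (SD, n = 8). With the Gls2 hairpin WT livers averaged 174 ± 15.6 CPM, against 171 ± 28.3 CPM with the control hairpin (SD, n = 10 each). The intervals of the log2 difference ran from -0.18 to 0.16 in OTC and from -0.14 to 0.18 in WT livers.

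**Figure D4:**
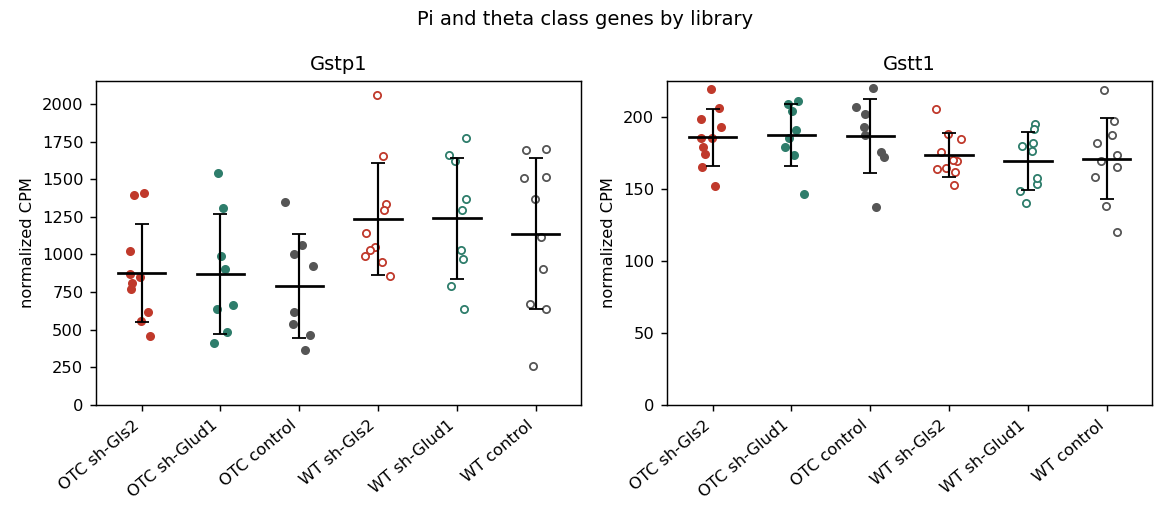
TMM-normalized CPM of Gstp1 and Gstt1 in each library by group, on linear axes from 0 with mean and SD. Filled points are OTC and open points WT; the groups overlap for both genes, and the lowest Gstp1 library is WT control mouse 13 at 256 CPM.

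No transferase level was called under the Glud1 hairpin. In OTC and in WT livers 0 of 10 genes were called higher or lower under sh-Glud1 by edgeR's test. The number with an unadjusted p below 0.05 was 0 in OTC and 1 in WT (Gstm2, 0.44 ± 0.18, adjusted p = 0.92), and DESeq2 called 0 in both. Over all tested genes 0% were called higher in either stock, and 0.015% were called lower in OTC and 0.0225% in WT livers. Of the shares within classes, chosen after their values were seen, Gstm3 took 6.64 ± 1.71% of mu class counts in WT sh-Glud1 and 5.41 ± 0.71% in WT control livers (SD, n = 9 and 10; exact permutation p = 0.01996, adjusted p = 0.043), with overlapping ranges. The other shares under sh-Glud1 were not called. Gsta1 had medians of 9.89 CPM in OTC sh-Glud1 and 10.01 CPM in OTC control livers, and 8.92 CPM in WT sh-Glud1 and 14.1 CPM in WT control livers. The intervals of its log2 difference, from -0.42 to 1.12 in OTC and from -1.14 to 0.29 in WT, lie below those of its rises under sh-Gls2, whose lower ends were 2.90 in OTC and 2.64 in WT.

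The hairpins were also set against each other. In OTC livers sh-Gls2 was above sh-Glud1 for 5 of 10 genes and below it for Gsta3 (19.5% of all genes higher and 21.1% lower), and in WT livers it was above for 6 of 10 and below for none (15.5% higher and 14.2% lower). Gsta1 was higher by 3.36 ± 0.39 in OTC and 3.79 ± 0.39 in WT livers (SE, adjusted p = 1.6e-09 and 2.5e-11), without overlap in either stock. These comparisons share their sh-Gls2 libraries with those against the control hairpin.

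**Figure D5:**
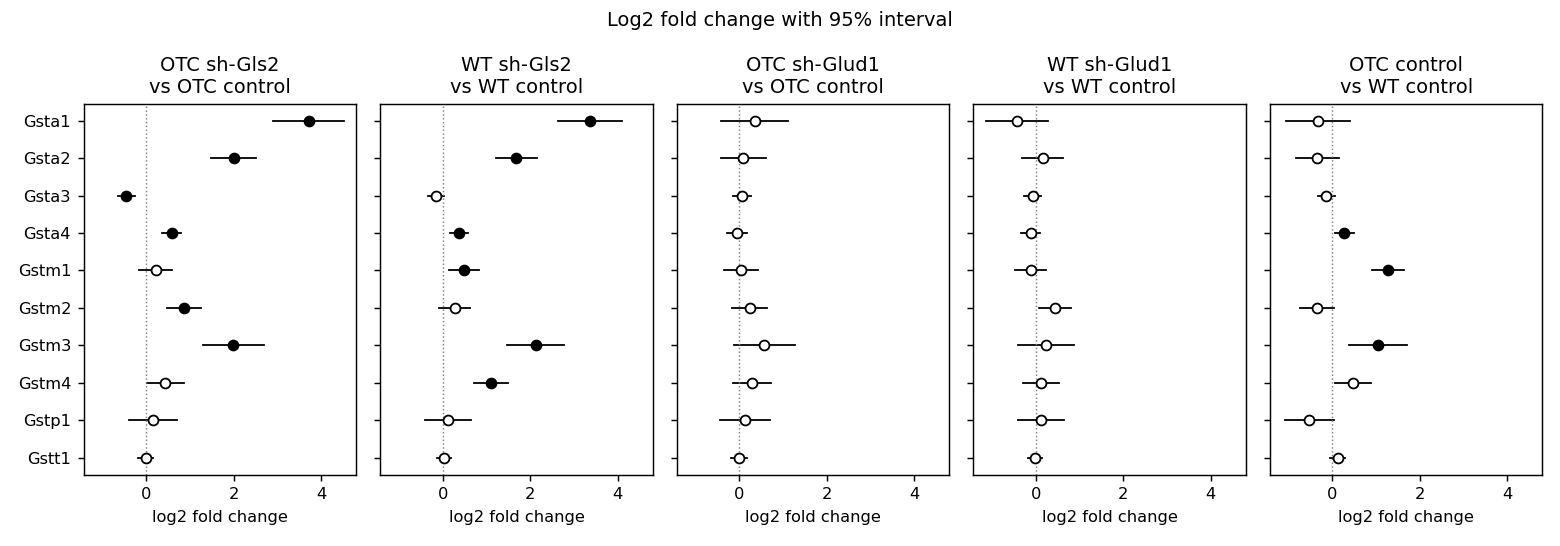
Log2 fold change (point) and 95% interval (line) of the 10 genes in 5 comparisons, with filled points called at an adjusted p below 0.05. The sh-Gls2 panels hold rises up to 3.71 in OTC and 3.37 in WT (Gsta1), the sh-Glud1 panels hold no call, and OTC control against WT control is led by Gstm1 at 1.27.

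Between the stocks under the control hairpin, 3 of 10 genes were higher in OTC livers and none lower, where 19.9% of all genes were higher and 16.4% lower, so the share was near that of all genes. Gstm1 was the clearest, with 1458, 2188 and 5387 CPM in OTC control and 652, 1089 and 1526 CPM in WT control livers (1.27 ± 0.18, SE, adjusted p = 4.7e-07). Only 1 OTC control library, mouse 3, lay inside the WT control range. Gstm3 was higher by 1.05 ± 0.33 (SE, adjusted p = 0.0096), but not without OTC control mouse 35 (0.69, adjusted p = 0.090). Gsta4 was higher by 0.28 ± 0.11 (SE, adjusted p = 0.044), a call that was lost in 11 of the 18 fits that left out 1 library, among them the fit without OTC control mouse 35 (0.14, adjusted p = 0.29). The 11 fits also include those without OTC control mouse 3 (0.27, adjusted p = 0.071), without mouse 67 (0.27, adjusted p = 0.061) and without the library that matched no title (0.27, adjusted p = 0.065). Omitting both mice 3 and 67 of the OTC controls also lost the Gsta4 call (0.27, adjusted p = 0.088).

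Gstp1 had 368, 772 and 1346 CPM in OTC control and 256, 1239.65 and 1703 CPM in WT control livers, and was not called (-0.52 ± 0.28, SE, adjusted p = 0.13). Without WT control mouse 13 it was called lower in OTC livers (-0.65, adjusted p = 0.045), but not without OTC control mice 3 and 67 (-0.32, adjusted p = 0.43) or without all 3 libraries (-0.44, adjusted p = 0.23). Gstm4 was 0.47 higher in OTC control livers and not called (adjusted p = 0.068). It was called without mouse 13 (0.56, adjusted p = 0.031), without mouse 3 alone (0.60, adjusted p = 0.0099), without mice 3 and 67 (0.69, adjusted p = 0.0046) and without all 3 (0.79, adjusted p = 0.0011). Gstt1 was not called (0.13, adjusted p = 0.25) and was called without all 3 (0.24, adjusted p = 0.030). Without OTC control mouse 35, Gsta2 was called lower in OTC livers (-0.62, adjusted p = 0.039, against -0.35 and 0.27 with it). The mu class sum was higher in OTC control livers by 1.18 ± 0.19 (SE, adjusted p = 3.7e-06), and the alpha class sum was not called (-0.13 ± 0.10, adjusted p = 0.31). Gstm1 made up a mean of 91.4% of mu class counts in OTC control and 86.2% in WT control livers, so the mu class sum mainly follows Gstm1. Gstm2 was lower in OTC control livers and not called (-0.35, adjusted p = 0.16). Of the wider classes, Gstm1 to Gstm7 summed were higher by 1.07 ± 0.18, Gstt1 to Gstt4 by 0.37 ± 0.10 (adjusted p = 0.0040), and Gstp1 with Gstp2 was not called (-0.53 ± 0.28).

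Gstm1 was also higher in OTC than in WT livers under both knockdown hairpins, by 0.997 ± 0.18 under sh-Gls2 and by 1.43 ± 0.19 under sh-Glud1, without overlap (SE, adjusted p = 2.7e-05 and 1.1e-07). Under sh-Gls2, 3 of 10 genes were higher in OTC (Gsta4, Gstm1 and Gstm3) and Gsta3 was lower (-0.43 ± 0.09, adjusted p = 0.00052, no overlap), where 14.5% of all genes were higher and 14.9% lower. Under sh-Glud1, 4 were higher (Gsta4, Gstm1, Gstm3 and Gstm4) and Gstm2 was lower (-0.54 ± 0.20, adjusted p = 0.027), where 19.9% were higher and 15.1% lower. Without OTC sh-Glud1 mouse 58 the Gsta4 and Gstm2 calls were lost, which left 3. The Gstm2 call was also lost without OTC sh-Glud1 mouse 44 and without WT sh-Glud1 mouse 17 or 56, and in a fit of only the 2 groups compared, and the Gsta4 call without WT sh-Glud1 mouse 40. Without OTC sh-Glud1 mouse 33 Gsta2 was called lower (-0.64, adjusted p = 0.043). The alpha class sum was lower in OTC livers under sh-Gls2 (-0.28 ± 0.09, SE, adjusted p = 0.018) and not called under sh-Glud1 (-0.01 ± 0.10, adjusted p = 0.96). The mu class sum was higher in OTC livers by 0.92 ± 0.18 under sh-Gls2 and 1.31 ± 0.20 under sh-Glud1 (SE, adjusted p = 0.00013 and 1.1e-06). The effect of sh-Glud1 in OTC minus that in WT was called for 0 of 10 genes, with 0 at an unadjusted p below 0.05 by edgeR and 0 calls by DESeq2, and for 0% of all genes in either direction.

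Within groups Gstm1, Gstm3 and Gstm4 varied together. After each group's mean log2 CPM was subtracted, Gstm1 and Gstm3 had a Pearson r of 0.91 over 55 libraries, Gstm3 and Gstm4 0.80, and Gstm1 and Gstm4 0.76. Gstm2 had lower values with these 3 mu class genes (0.42 with Gstm1, 0.48 with Gstm3 and 0.45 with Gstm4) than with Gstt1 (0.64) or Gsta3 (0.59). These genes share library, depth and in part sequence, so the values are descriptions. Gsta1 and Gsta2 had an r of 0.42, lower than Gsta1 with Gsta4 at 0.65. Gstp1 had r from -0.49 (Gstm2) to 0.19 (Gstm4) with the other 9 genes, and from -0.44 (Gstm2) to 0.34 (Gstm4) without WT control mouse 13.

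The genes outside the family with the most similar within-group pattern were different for each member examined. For Gsta1 they were Cbr3, a carbonyl reductase (r = 0.68), Nqo1, a quinone reductase (0.64), and Tor1a (0.63), and for Gstm3 they were Ephx1, the microsomal epoxide hydrolase (0.86), Ddit4l (0.83) and Entpd5 (0.82). For Gstp1 they were Lama3 (0.80), Selenbp2 (0.77) and Cyp2d9 (0.76), a male-biased cytochrome P450. For Gstt1 they were Fads1 (0.77), Hadh (0.76) and Aldh4a1 (0.75). Gstp1 correlated positively with all 13 male-biased genes (r from 0.49 to 0.76, median 0.69) and with none of 11 tested female-biased genes (r from -0.71 to -0.09). Without WT control mouse 13 the male-biased median was 0.61, with r from 0.48 to 0.70, and the highest female-biased r was 0.03. In OTC control against WT control livers, with all libraries included, 12 of the 13 male-biased genes were lower, where 16.4% of all genes were lower. The part of this list in the Gstp1 levels was not tested.

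The remaining enzymes of glutathione conjugation were read beside the family. Of 9 tested other cytosolic transferases, 3 rose and 2 fell under sh-Gls2 in OTC livers and 3 rose and 1 fell in WT livers. Here and for the lists that follow, 20.2% of all genes rose and 22.6% fell in OTC livers, and 17.6% rose and 17.2% fell in WT livers, and the counts of this first list are near those shares. Hpgds, the haematopoietic prostaglandin D synthase, rose by 1.06 ± 0.20 in OTC and 0.53 ± 0.19 in WT livers, and Gstz1, of tyrosine breakdown, fell by 0.27 in OTC and 0.24 in WT livers (adjusted p = 0.0011 and 0.0033). Of 3 tested mitochondrial and microsomal transferases, 2 rose in OTC livers and 1 in WT livers, and Mgst3 was called in both (0.49 ± 0.19 and 0.71 ± 0.18). In OTC control against WT control livers Mgst1 and Gstk1 were lower (-0.74 ± 0.07 and -0.52 ± 0.09) and Mgst3 was higher (1.07 ± 0.19).

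Of 16 tested genes of glutathione synthesis, recycling and breakdown, 7 rose and 1 fell in OTC livers and 6 rose and 1 fell in WT livers under sh-Gls2. Gsr, glutathione reductase, had medians of 115 CPM in OTC sh-Gls2 and 63.6 CPM in OTC control livers, and 117 CPM in WT sh-Gls2 and 67.003 CPM in WT control livers, rises of 0.82 ± 0.08 and 0.81 ± 0.08 (SE, adjusted p = 1.1e-11 and 1.4e-12). Gss, glutathione synthetase, rose by 0.60 ± 0.08 in OTC and 0.67 ± 0.08 in WT livers. Of 10 genes of conjugate export and mercapturate steps, 6 rose and 1 fell in OTC and 5 rose and 1 fell in WT livers. Abcc4, an exporter that carries glutathione conjugates, had medians of 24.2 CPM in OTC sh-Gls2 and 2.96 CPM in OTC control livers (2.78 ± 0.36, adjusted p = 1.7e-08), and 8.92 CPM in WT sh-Gls2 and 1.499 CPM in WT control livers (1.84 ± 0.34, adjusted p = 2.7e-05). Nat8, which acetylates cysteine conjugates, rose by 2.05 ± 0.34 in OTC and 0.80 ± 0.28 in WT livers, and was lower by 2.30 in OTC control against WT control livers.

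Of 26 NRF2 regulators and targets other than transferases, 14 rose and 1 fell under sh-Gls2 in each stock, with medians of 0.33 in OTC and 0.31 in WT livers on the log2 scale. Akr1c19, an aldo-keto reductase, rose by 1.09 ± 0.15 in OTC and 0.89 ± 0.14 in WT livers, and Prdx1, a peroxiredoxin, by 0.30 ± 0.05 and 0.32 ± 0.05. Nqo1 rose in WT livers (0.83 ± 0.23, adjusted p = 0.0042) and had a difference of 0.04 ± 0.24 in OTC livers. Of 14 tested CAR and PXR genes, 3 rose and 2 fell in OTC and 4 rose and 1 fell in WT livers, near the shares of all genes. Summed over the 15 listed genes, OTC livers had 10568 to 13147 CPM under sh-Gls2 and 8268 to 10959 CPM under the control hairpin. WT livers had 11138 to 15100.5 CPM under sh-Gls2 and 6068 to 9967 CPM under the control hairpin, without overlap. Of 6 tested AHR genes 3 rose in OTC and 2 in WT livers. Cyp1a1, the classic AHR target, rose by 0.66 ± 0.21 in OTC and 0.56 ± 0.21 in WT livers.

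Most markers of Kupffer cells and of dividing cells rose under sh-Gls2 in both stocks, and the other marker lists were mixed. Kupffer cell markers rose for 7 of 8 genes in OTC and 6 of 8 in WT livers, with summed levels of 163 to 275 CPM in OTC sh-Gls2 and 79.6 to 194 CPM in OTC control livers, and 140.5 to 225 CPM in WT sh-Gls2 and 102 to 162 CPM in WT control livers. Dividing cell markers rose for 5 of 6 genes in OTC and 6 of 6 in WT livers, with sums of 5.43 to 38.8 CPM in OTC sh-Gls2 and 2.58 to 4.38 CPM in OTC control livers, and 10.2 to 58.6 CPM in WT sh-Gls2 and 3.07 to 8.61 CPM in WT control livers. Stellate cell markers rose for 5 of 8 genes in OTC and 3 of 8 in WT livers, bile duct markers for 2 of 7 in each, endothelial markers for 5 of 6 in OTC and 0 of 6 in WT, and lymphocyte markers for 1 of 8 in each. The bile duct and lymphocyte counts are near the shares of all genes that rose, 20.2% in OTC and 17.6% in WT livers. No erythroid marker was called, and hepatocyte markers fell for 4 of 8 genes in OTC and 2 of 8 in WT livers. Of pericentral hepatocyte genes 8 of 14 rose in OTC livers, and 3 rose and 1 fell in WT livers. Of periportal genes 2 of 12 rose and 3 fell in OTC livers, and 1 rose in WT livers. Of the male-biased genes 3 of 13 fell in OTC livers and 0 in WT livers, and of 11 tested female-biased genes 4 rose in OTC livers, while 3 rose and 1 fell in WT livers. The part of these cells and programmes in the transferase levels was not tested.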

How the data were processed

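Poly(A) RNA of 55 mouse livers was sequenced with a strand-specific kit, per the labels' protocols. The authors deposited raw read counts per gene symbol and TPM, whose columns each sum to between 999999.14 and 1000000.79. CASAVA 1.8.2, FastQC and the build GRCm38 are named per the submitters' processing notes, and the aligner, counter and annotation are not given in the sources used here. No column of values lay outside the series. Median depth was 18683991 counts, and the labels name no molecular identifiers.

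The counts were fitted with edgeR 4.0.16 (R 4.3.3, limma 3.58.1, DESeq2 1.42.0): filterByExpr (minimum count 10, minimum total 15), TMM factors (0.9238 to 1.118), 1 quasi-likelihood fit of all 6 groups, and Benjamini-Hochberg adjustment over 13311 genes, two-sided. For class sums the members' rows were replaced by their sum. SE is the log2 fold change over the square root of F. Shares of counts were compared by permutation of libraries (SciPy 1.17.1). For WT sh-Gls2 against WT control the resamples were drawn at random, so the p-values of fully separated shares differ only by the draw. The smallest chi-square per degree of freedom over 1485 library pairs was 10.5, so no library was a duplicate. The labels name no batch. The scripts were tested on simulated counts.

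The members, gene lists and tests were chosen with earlier results of these data known. The text names all 10 members, and of each list genes among the 3 with the smallest adjusted p under sh-Gls2 in OTC livers and the 2 between stocks. For 4 members, 1 per class, it names the 3 most correlated other genes (log2 CPM with a prior count of 2). Positions are from GENCODE M21 by symbol. Promoters are from RefSeq (GRCm38.p6), which matched 9 of the 10 members.

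Alternatives were DESeq2 size factors, no filter, a filter of 1 CPM in 8 libraries, the DESeq2 Wald test, only the groups compared, limma on log2(TPM + 1) and log2(TPM + 0.1) with a mean of at least 1 TPM, and the omission of libraries.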

Additional observations from a re-analysis of the deposited data

Results flagged for a closer look

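In 72 groups of values (the 10 genes and the alpha and mu class sums in 6 groups of 8 to 10 mice), 6 had a highest or lowest library whose gap to its neighbour exceeded Dixon's 95% limit for the group's range. Chance flags about 1 in 20 groups. The 6 values came from 4 libraries.

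OTC sh-Glud1 mouse 33 had 47.87 CPM of Gsta1, against 14.2 CPM in the next library of its group, and 604 CPM of Gstm3, against 281 CPM in the next. OTC control mouse 35 had 78.58 CPM of Gsta2, against 39.7 CPM in the next, and 130.6 CPM of Gsta4, against 82.6 CPM in the next. WT sh-Gls2 mouse 14 had 110.7 CPM of Gsta4, against 92.4 CPM in the next. WT sh-Glud1 mouse 40 had 41.01 CPM of Gsta4, below the next lowest at 60.3 CPM.

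In the 2 high OTC libraries Nqo1 and Ephx1 were read as well. They are among the genes most correlated with Gsta1 and Gstm3 over these same libraries, so high values there are not separate evidence. Nqo1 was at 26.3 CPM in OTC sh-Glud1 mouse 33 and 24.2 CPM in OTC control mouse 35, and Ephx1 was at 622 CPM in mouse 33 and 749 CPM in mouse 35. The next OTC sh-Glud1 libraries were mouse 23 for Nqo1 (20.7 CPM) and mouse 71 for Ephx1 (621 CPM), close to mouse 33. The next OTC control library, that without a matching title, had 14.6 CPM of Nqo1 and 527 CPM of Ephx1. The part of these genes in the transferase levels was not tested.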

How the results depend on the processing

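No result reversed its direction while called. Between stocks under the control hairpin, the count of 3 called members became 5 without WT control mouse 13 (4 higher and 1 lower) and 5 without that library and OTC control mice 3 and 67, and ran from 2 to 5 when each library was left out in turn. Between stocks under sh-Glud1, the count of 5 ran from 3 to 6 on leaving out single libraries. The count under sh-Gls2 was 6 to 8 of 10 in OTC livers and 5 to 6 in WT livers when single libraries were left out. The mu class sum under sh-Gls2 in OTC livers (0.40, not called) was called in the fits of log2(TPM + 0.1) at 0.51354 and of log2(TPM + 1) at 0.51342, with and without the filter, and ran from 0.30 to 0.61 with single libraries left out. It was called without OTC control mouse 35 and without the OTC control library whose number matched no title (0.48, adjusted p = 0.048). Of the members' values, 16 calls were gained and 9 lost under other settings, and 8 were gained and 19 lost when single libraries were left out. On log2(TPM + 1), Gstt1 was called higher in OTC than WT livers under the control hairpin (0.24, adjusted p = 0.025), under sh-Gls2 (0.24, adjusted p = 0.021) and under sh-Glud1 (0.31, adjusted p = 0.0046), and Gstm2 was no longer called under sh-Glud1 (-0.30, adjusted p = 0.21). The causes were not tested.

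Adding Gm3776 and Gm10639 to the alpha class sum, an alternative chosen after seeing the data, gave 0.03 in OTC livers and 0.17 in WT livers under sh-Gls2, neither called. No paired analysis was possible because mouse numbers are unique and no groups share them.

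Reads shared between near copies limit the single-gene values of Gsta1, Gsta2, Gstp1, Gstm1 and Gstm3, and how they were assigned is not known. Gsta1 was the least abundant member outside sh-Gls2, at a median of 8.92 to 14.1 CPM, so its fold rests on the smallest counts. Stock and Otc allele cannot be told apart, nor can the fall of a target gene and other effects of its hairpin. Where the labels do not state separate litters or days, p-values measure the spread between these mice.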
